A study of Mus musculus with 9 samples.

Results

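Cadherins, claudins and connexins are the families of membrane proteins that form the core of adherens junctions, tight junctions and gap junctions. The genes described here are those whose name on the array was Cdh, Cldn, Gja, Gjb, Gjc or Gjd followed by a number, which gave 74 genes of the 37008 gene names on non-control probes. They comprised 23 cadherin genes, 32 claudin genes and 19 connexin genes, measured by 53, 37 and 31 probes. The names also take in cadherins outside the classical type, such as Cdh13, Cdh16, Cdh17, Cdh23 and Cdh26.

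Expression was measured in primary hepatic stellate cells of C57BL/6 mice aged 10 weeks on 9 single-colour arrays, 3 in each of 3 groups. Stellate cells are the retinoid-storing pericytes of the liver, which turn into contractile, collagen-producing cells when activated. Cells of the first group had been activated by culture for 7 days on hard plastic and then transfected overnight with 5 nM of an siRNA against Cav1, which encodes a coat protein of caveolae. Cells of the second group had the same culture and a negative control siRNA at the same dose. Cells of the third group were labelled quiescent with no treatment, and the labels give no time of harvest for them. All cells came from collagenase-perfused livers and were plated in medium with serum. Culture, transfection and activation therefore differed together between the control-siRNA and the quiescent cells and cannot be told apart. The sources used here do not say whether replicates are separate animals or cultures, so the p-values reflect the scatter of these samples only, which may be technical.

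As background, cadherins bind the same cadherin on the next cell and hold catenins and actin at their inner ends. Claudins set which ions and molecules pass between cells of a sheet, and connexins assemble into channels that join the cytoplasm of neighbouring cells. In the liver Cdh1, several claudins, Gjb1 and Gjb2 are known from hepatocytes and bile ducts, Cdh5, Cldn5 and Gja4 from endothelium, and Cdh2, Cdh11 and Gja1 from mesenchymal cells, stellate cells among them.

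Levels are given as log2 of the processed signal after subtraction of the array's 75th percentile, so that 0 is a fairly bright probe, and the brightest kept probe stands for its gene. Probes above background made up 60.1 to 64.0% on the Cav1-siRNA arrays, 61.9 to 69% on the control-siRNA arrays and 51.5 to 58.4% on the quiescent arrays, with the lowest share on quiescent array 2. The targeted gene Cav1 read -2.88, -2.89 and -3.07 with Cav1 siRNA, -1.34, -1.12 and -1.09 with control siRNA and -4.87, -5.65 and -5.84 in quiescent cells, so that the Cav1-siRNA arrays lay below the control-siRNA arrays as labelled. The Cav1 difference was -1.76 (adjusted p = 0.14). Of the stellate cell markers, Lrat, which esterifies retinol for storage, read -8.04, -8.44 and -8.47 with control siRNA against 0.48, 1.30 and -0.13 in quiescent cells, and the activation marker Acta2 read 7.47, 7.39 and 7.40 with control siRNA against -0.19, -0.99 and -1.66 in quiescent cells. Des and Gfap, other usual markers of these cells, had no probe above background on all 3 arrays of any group. The quiescent arrays also carried markers of other liver cells. The summed level of 15 hepatocyte markers, as signal over the 75th percentile, was 0.678 to 0.701 on the Cav1-siRNA arrays, 0.793 to 0.933 on the control-siRNA arrays and 1310 to 1550 on the quiescent arrays. That of 18 endothelial markers was 2.07 to 2.41, 3.51 to 3.89 and 404 to 708 in the same groups. That of 14 macrophage markers was 33.2 to 35.2, 36.1 to 39.8 and 379 to 629.

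Of the 74 genes, 38 had a probe that cleared background on each of the 3 arrays of some group, and these entered the tests. These were 15 cadherin, 12 claudin and 11 connexin genes, and for 17 of them the brightest probe was above background on all 9 arrays. Another 36 genes did not pass and are not compared. Among cadherins these were Cdh7, Cdh9, Cdh15, Cdh17, Cdh19, Cdh20, Cdh23 and Cdh24. Among claudins they were Cldn4, Cldn6, Cldn8, Cldn10, Cldn11, Cldn13, Cldn16, Cldn17, Cldn19, Cldn22, Cldn23 and Cldn24, with Cldn34-ps, Cldn34a, Cldn34b1, Cldn34b2, Cldn34b3, Cldn34b4, Cldn34c4 and Cldn34d. Among connexins they included Gja3, Gja6, Gja10, Gjb6, Gjd2, Gjd3 and Gjd4. A gene such as Cldn4 may be expressed below what these arrays detect.

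**Figure D1:**
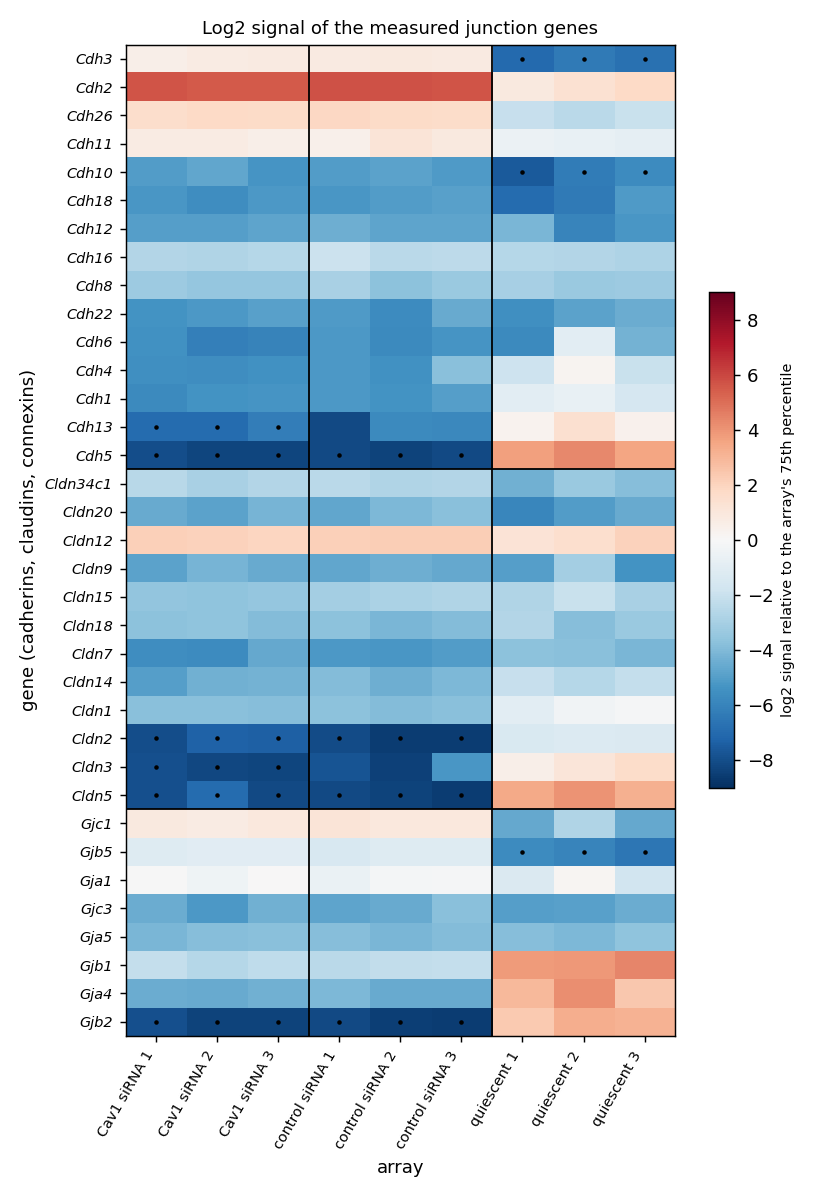
Log2 signal of 35 of the 38 measured genes (rows, by family and by their change) on the 9 arrays (columns: Cav1 siRNA, control siRNA, quiescent), relative to each array's 75th percentile, in colour. Black dots mark a gene that cleared background on 0 of the 3 arrays of that group. The 6 activated arrays look alike, with Cdh2 near 5.7 under the control siRNA, while Cdh5, Cldn5, Gjb1, Gja4 and Gjb2 are bright on the quiescent arrays alone.

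The control-siRNA cells were set against the quiescent cells to show which junction genes differed between activated and quiescent cells. Each family held genes that rose and genes that fell, and the large rises were among cadherins and connexins. Of the 38 measured genes 15 rose and 13 fell at an adjusted p under 0.05 (limma, Benjamini-Hochberg over 23965 genes), and 10 were not called. Their shares of 39.5% rising and 34.2% falling stand beside 42.1% and 26% of all genes tested. Their median log2 difference was -0.12, against +0.32 over all genes, and the median size of their difference was 2.59, against 0.97. Only 8 of the 15 risers and 7 of the 13 fallers cleared background throughout both groups. The others passed the filter through the group in which they were high, so their counts are a description. Cadherins had 7 rises and 4 falls among 15 genes, connexins had 5 and 3 among 11, and claudins had 3 and 6 among 12.

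Among cadherins 7 rose and 4 fell. Cdh2, the N-cadherin of mesenchymal and neural cells, read 5.67, 5.54 and 5.51 with Cav1 siRNA, 5.73, 5.70 and 5.65 with control siRNA and 0.86, 1.36 and 1.81 in quiescent cells. All 3 control-siRNA arrays lay far above the quiescent ones, a 20.4-fold rise (log2 +4.35, SE 0.22, adjusted p = 2.2e-07). A second kept Cdh2 probe was above background on 0 of the 3 quiescent arrays, so its difference is not given. Cdh3, the P-cadherin of epithelia, was not above background on any quiescent array and read 0.50, 0.77 and 0.80 with Cav1 siRNA, 0.82, 0.87 and 0.82 with control siRNA and -7.01, -6.37 and -6.74 in quiescent cells. With a probe at chromosome 8, 109079933 to 109079992 (mm9), it was at least 55.8-fold higher in control-siRNA cells (adjusted p = 3.6e-09). Such a bound sets the bright group against, on each dim array, the lowest signal called above background there or the gene's own if that was higher.

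Cdh26, a cadherin known from gastrointestinal epithelium, rose 15.1-fold (log2 +3.92, SE 0.16, adjusted p = 5.1e-08) and read 1.59, 1.78 and 1.70 with Cav1 siRNA, 1.90, 1.72 and 1.63 with control siRNA and -2.08, -2.42 and -2.004 in quiescent cells. The groups did not overlap. Its second kept probe gave +2.501, with 1 of the 3 quiescent arrays above background. Cdh11, the mesenchymal cadherin of fibroblasts and bone-forming cells, rose 2.91-fold (log2 +1.54, SE 0.19, adjusted p = 8.3e-05). It read 0.74, 0.75 and 0.53 with Cav1 siRNA, 0.49, 1.16 and 0.91 with control siRNA and -0.53, -0.69 and -0.84 in quiescent cells. Its signal on the quiescent arrays was already in the measured range, and its second kept probe gave +1.01. With control-siRNA array 1 alone against the quiescent arrays of the same slide, the Cdh11 difference was +1.18 and was not called (adjusted p = 0.066).

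Other cadherins rose by less. Cdh10, a neural cadherin, was not above background on the quiescent arrays and read -5.04, -4.81 and -5.11 with control siRNA against -7.55, -6.29 and -5.69 in quiescent cells, too dim for a bound (adjusted p = 0.0093). Cdh18 was also called, at +1.06 (adjusted p = 0.039), although its groups overlapped and its probe was above background on 1 quiescent array. Cdh16, the kidney cadherin, was called at +0.42 (adjusted p = 0.043). These 3 calls do not hold up well. After normexp correction scaled by the 75th percentile Cdh10 turned to -0.34 and Cdh18 to -0.39, while with normexp and quantile normalization they were +0.23 and +0.16 and were not called. Cdh16 lost its call in 15 of 23 alternatives. Cdh12 (+0.48), Cdh8 (-0.11) and Cdh22 (-0.14) were not called.

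Among the cadherins that fell, Cdh5, the VE-cadherin of endothelial junctions, had the largest difference. With a probe at chromosome 8, 106668159 to 106668218 (mm9), it read -8.00, -8.24 and -8.29 with Cav1 siRNA, -8.10, -8.34 and -8.15 with control siRNA and 3.71, 4.35 and 3.54 in quiescent cells. No activated array was above background, and the control-siRNA level was at least 1003-fold lower (adjusted p = 9.1e-10). Cdh13, a cadherin held to the membrane by a lipid anchor and known from vessels, read -6.92, -6.96 and -6.26 with Cav1 siRNA, -8.11, -5.72 and -5.82 with control siRNA and 0.29, 1.42 and 0.37 in quiescent cells, a log2 difference of -7.24 (adjusted p = 6.5e-06). With control siRNA it cleared background on 2 of 3 arrays, and its second kept probe on 0 of 3. Cdh1, the E-cadherin of epithelial sheets, fell 17.5-fold (log2 -4.13, SE 0.23, adjusted p = 3.7e-07). It read -5.73, -5.39 and -5.29 with Cav1 siRNA, -5.15, -5.35 and -4.98 with control siRNA and -0.93, -0.69 and -1.48 in quiescent cells, and cleared background on 2 of the 3 Cav1-siRNA arrays. Cdh4, the R-cadherin, fell by 3.57 on the log2 scale (adjusted p = 7e-04) with -5.18, -5.42 and -3.74 with control siRNA against -1.84, 0.23 and -2.01 in quiescent cells.

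Quiescent array 2 was the highest of its group for several genes. For Cdh6 it read -0.96 against -5.73 and -4.28 on the other quiescent arrays, and the Cdh6 difference of -1.74 was not called (adjusted p = 0.14). The second kept Cdh6 probe had the opposite sign and was above background on 0 of the 3 quiescent arrays, so no direction is given for this gene. The median SD of the measured junction genes was 0.18 on Cav1-siRNA arrays, 0.20 on control-siRNA arrays and 0.47 on quiescent arrays. Over all genes it was 0.12, 0.16 and 0.35.

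**Figure D2:**
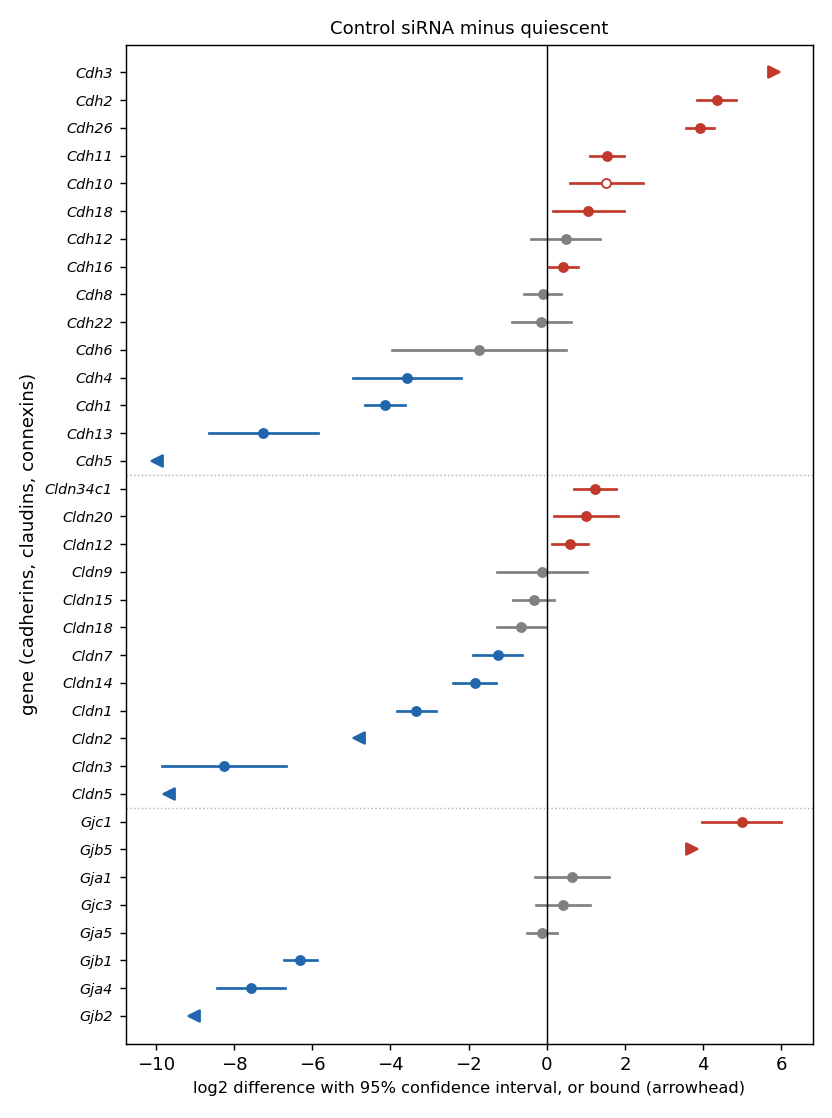
Log2 difference of control-siRNA minus quiescent cells for 35 of the 38 measured genes with 95% confidence intervals from limma (n = 3 arrays a group). Arrowheads are lower bounds on the size where a group was below background, red and blue mark genes called higher and lower, grey marks genes not called, and the open point for Cdh10 marks a dim gene without a bound. Each family spans rises and falls, from Cdh3 to Cdh5, Cldn34c1 to Cldn5 and Gjc1 to Gjb2.

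Of the 12 measured claudins 6 fell and 3 rose. Cldn5, the claudin of endothelial tight junctions, read -7.89, -6.91 and -8.09 with Cav1 siRNA, -8.15, -8.30 and -8.55 with control siRNA and 3.42, 4.04 and 3.18 in quiescent cells. It was above background on the quiescent arrays alone and at least 803-fold lower in control-siRNA cells (adjusted p = 6.7e-09). Cldn3, a sealing claudin of epithelia, read -7.91, -8.21 and -8.28 with Cav1 siRNA, -7.77, -8.42 and -5.27 with control siRNA and 0.51, 1.09 and 1.68 in quiescent cells. It fell by 8.25 on the log2 scale (adjusted p = 6.7e-06), with control-siRNA array 3 alone above background in its group. Cldn2, which forms cation-selective pores, was at least 27.9-fold lower (adjusted p = 1.2e-08) and read -8.04, -8.54 and -8.55 with control siRNA against -1.39, -1.20 and -1.31 in quiescent cells. Cldn1, another sealing claudin, stayed measurable on all 9 arrays. It fell 10.1-fold (log2 -3.34, SE 0.22, adjusted p = 1.2e-06), at -3.80, -3.73 and -3.86 with Cav1 siRNA, -3.70, -3.92 and -3.79 with control siRNA and -0.98, -0.34 and -0.08 in quiescent cells.

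Cldn14 and Cldn7 fell by smaller amounts. Cldn14, a claudin known from the inner ear, kidney and liver, read -3.90, -4.36 and -4.02 with control siRNA against -2.05, -2.56 and -2.13 in quiescent cells, a log2 difference of -1.85 (adjusted p = 0.00012). Cldn7, an epithelial claudin, read -5.14, -5.25 and -5.00 with control siRNA against -3.68, -3.79 and -4.13 in quiescent cells, a log2 difference of -1.26 (adjusted p = 0.0028). The rises among claudins were small. Cldn12, measurable on all 9 arrays, rose 1.52-fold (adjusted p = 0.026) and read 2.17, 2.23 and 2.21 with control siRNA against 1.23, 1.54 and 2.04 in quiescent cells. Cldn20 rose by +1.001 (adjusted p = 0.036) with -4.66, -4.01 and -3.77 with control siRNA against -5.90, -5.01 and -4.53 in quiescent cells, groups that overlapped. Cldn34c1 rose by +1.24 (adjusted p = 0.0014) with -2.43, -2.69 and -2.63 with control siRNA against -4.29, -3.36 and -3.81 in quiescent cells. It reads as uncertain. The Cldn34 genes are close copies of each other, and whether its probe also reads other copies was not tested. Its other kept probes were above background on 0 quiescent arrays, and its call was lost in 3 of 23 alternatives. Cldn12 and Cldn20 lost their call in 10 of 23 and 11 of 22 alternatives, and Cldn20 turned to -0.26 with normexp and the 75th percentile. Cldn9 (-0.12), Cldn15 (-0.34) and Cldn18 (-0.65) were not called.

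Of the 11 measured connexins 5 rose and 3 fell. Gjb5, an epithelial connexin, was not above background on any quiescent array and read -1.42, -1.19 and -1.18 with control siRNA against -5.64, -5.96 and -6.52 in quiescent cells. It was at least 13.1-fold higher in control-siRNA cells (adjusted p = 1e-07). Gjc1, a connexin of smooth muscle and the conducting tissue of the heart, rose 31.6-fold (log2 +4.98, SE 0.45, adjusted p = 9.6e-06) and read 0.89, 0.73 and 0.94 with Cav1 siRNA, 1.16, 0.97 and 0.95 with control siRNA and -4.61, -2.70 and -4.57 in quiescent cells. Every activated array lay above every quiescent array. Gjc3, another connexin, had a difference of +0.41 and was not called.

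The connexins that fell were those known from hepatocytes and endothelium. Gjb1, the main hepatocyte connexin, read -2.13, -2.54 and -2.31 with Cav1 siRNA, -2.40, -2.23 and -2.16 with control siRNA and 3.81, 3.92 and 4.37 in quiescent cells. It fell 78.8-fold (log2 -6.30, SE 0.19, adjusted p = 9.8e-09) and stayed above background on all activated arrays. Gjb2, its partner in hepatocyte gap junctions, read -7.93, -8.34 and -8.35 with Cav1 siRNA, -8.15, -8.47 and -8.53 with control siRNA and 2.36, 3.25 and 3.15 in quiescent cells and fell by a factor of at least 519 (adjusted p = 2.7e-09). Gja4, an endothelial connexin, read -4.49, -4.52 and -4.34 with Cav1 siRNA, -4.06, -4.56 and -4.53 with control siRNA and 2.89, 4.16 and 2.45 in quiescent cells. It fell by 7.56 on the log2 scale (SE 0.38, adjusted p = 2.2e-07). Gja5, another vascular connexin, had a difference of -0.13 on its brightest probe, above background on 2 quiescent arrays, and was not called. Its other kept probes were called lower when each was tested by itself in limma. A probe above background on all 9 arrays gave -0.78 (adjusted p = 0.029). The remaining probe gave -2.59 (adjusted p = 0.0024), clear of background on 1 control-siRNA array. No single direction is given for Gja5.

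Hepatocyte and endothelial markers moved with these falls. All 15 hepatocyte markers and all 18 endothelial markers fell (median log2 differences -11.96 and -8.54), as did all 14 macrophage markers (-5.53). In control-siRNA cells 6 hepatocyte markers, Pck1, Hnf4a and Ttr among them, and 5 endothelial markers, Tek, Emcn and Tie1 among them, were not above background on any array. Among 9 measured cholangiocyte markers 3 rose and 5 fell (-3.15), with Krt19 at -3.15 and Krt23 at -6.25 among the falls. One of the rises was Spp1, also listed as an activated stellate cell marker. It read 5.04, 4.76 and 4.90 with control siRNA against 1.27, 2.52 and 0.82 in quiescent cells. The part of other cell types in the falls of Cdh5, Cldn5, Gja4, Cdh1, Cldn1, Cldn2, Cldn3, Gjb1 and Gjb2 was not tested. In bulk samples fewer cells of a type and less RNA per cell cannot be told apart.

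Markers of mesothelial cells and of activated stellate cells mostly rose, while smooth muscle and pericyte markers were split and the other stellate cell markers mostly fell. Of 11 measured mesothelial markers 9 rose and 2 fell (median +3.78), with Bnc1 at +7.36, Wt1 at +7.07 and the epithelial keratin Krt18 at -10.09. Their summed level was 28.7 to 31.1 on the Cav1-siRNA arrays, 35.5 to 36.5 on the control-siRNA arrays and 34.5 to 60.9 on the quiescent arrays. The quiescent sum came mostly from the keratins Krt8 (5.03, 3.73 and 4.77) and Krt18 (4.70, 4.31 and 4.90), so it does not stand for the list as a whole. The list also holds Cav1, the target of the siRNA, as one of its risers. Of 11 activated stellate cell markers 10 rose (median +5.81), with Lox at +10.02 and Timp1 at +8.73, and their sum was 979 to 1050 on the Cav1-siRNA arrays, 881 to 935 on the control-siRNA arrays and 39.1 to 54 on the quiescent arrays. Of 12 measured stellate cell markers 2 rose, Pdgfrb (+4.51) and Pdgfra (+4.31), and 8 fell, Colec10 (-8.21) among them. Smooth muscle and pericyte markers had 4 rises and 4 falls among 10, with Cnn1 at +5.44 and Abcc9 at least 94.3-fold lower. The part of mesothelial cells in the rises of Cdh3 and Gjb5 was not tested.

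Neighbouring genes did not always move together. In the RefSeq gene order of GRCm38.p6, 20 pairs of these genes stand next to each other among protein-coding genes, and both genes were measured in 7 pairs. In 3 of the 7 the neighbours had opposite calls, in 2 they had the same call. Cdh3 and Cdh1 stand side by side on chromosome 8, with probes from 109079933 to 109193871 (mm9), and Cdh3 rose while Cdh1 fell. Cdh11 rose and its neighbour Cdh5 fell.

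The bases just before the annotated starts of 4 connexin genes are shown because Gja4 and Gjb5 lie on the same chromosome and moved in opposite directions, Gjb2 fell to background and Gja1 is a usual connexin of mesenchymal cells. They were taken from RefSeq on the build GRCm38.p6. Each run gives the 250 bases before the start, 5′ to 3′ on the gene's strand, at chr4:127358165-127358414 (minus strand), chr4:127314040-127314289 (minus), chr10:56377050-56377299 (plus) and chr14:57104703-57104952 (minus). Capitals mark matches to CAGGTG, an E-box bound by the Snai and Zeb repressors of Cdh1, or to TGANTCA, the site of the AP-1 factors.
Gjb5: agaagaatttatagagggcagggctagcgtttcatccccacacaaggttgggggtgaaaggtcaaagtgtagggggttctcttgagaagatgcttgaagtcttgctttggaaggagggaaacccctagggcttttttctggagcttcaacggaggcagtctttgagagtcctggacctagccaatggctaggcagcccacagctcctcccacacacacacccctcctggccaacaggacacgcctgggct
Gja4: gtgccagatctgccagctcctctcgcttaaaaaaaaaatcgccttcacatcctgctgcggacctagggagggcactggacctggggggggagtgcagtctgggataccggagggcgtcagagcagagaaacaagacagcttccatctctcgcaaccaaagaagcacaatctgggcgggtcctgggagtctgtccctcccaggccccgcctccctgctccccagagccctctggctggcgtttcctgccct
Gja1: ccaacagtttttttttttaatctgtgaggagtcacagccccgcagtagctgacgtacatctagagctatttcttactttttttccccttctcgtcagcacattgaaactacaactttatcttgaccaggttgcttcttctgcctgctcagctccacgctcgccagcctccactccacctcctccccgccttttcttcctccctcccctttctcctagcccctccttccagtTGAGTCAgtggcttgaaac
Gjb2: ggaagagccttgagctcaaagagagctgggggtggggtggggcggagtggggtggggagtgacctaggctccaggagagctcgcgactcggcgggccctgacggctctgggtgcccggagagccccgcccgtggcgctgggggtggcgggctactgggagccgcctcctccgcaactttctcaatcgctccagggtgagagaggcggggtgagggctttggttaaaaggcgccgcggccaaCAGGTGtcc

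The Gja1 run held TGANTCA beginning 19 bases before the start, the Gjb2 run held CAGGTG beginning 9 bases before it, and the Gjb5 and Gja4 runs held neither on either strand. Over all 32851 promoter windows of this length 6.75% held TGANTCA and 17.2% held CAGGTG, on either strand. A window was found for 50 of the 74 genes and 25 of the 38 measured ones. At least 1 window with CAGGTG was found for 4 of the 9 fallers with a window (Cldn7, Cldn14, Gjb1 and Gjb2) and for 0 of the 7 risers. It was also found for 0 of the 9 genes with a window that were not called. Cldn7, Cldn14 and Gjb1 had 2, 3 and 4 windows, of which 1 each held it. A count per gene is therefore not comparable with the 17.2% per window. The risers with a window included Cdh10, Cdh18, Cldn12 and Cldn20, whose calls were lost in some alternatives. No window was found for Cdh1 itself. TGANTCA was found for 2 measured genes, Gja1 and Cldn15. These matches are descriptions of the letters and no test was made of them.

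Gja1, the connexin of most mesenchymal cells, gave no single direction. Its brightest probe, at chromosome 10, 56109814 to 56109873 (mm9), read 0.00, -0.37 and 0.01 with Cav1 siRNA, -0.60, -0.20 and -0.11 with control siRNA and -1.32, 0.15 and -1.69 in quiescent cells. The difference of +0.65 was not called (adjusted p = 0.19, 95% confidence interval -0.30 to 1.60). Quiescent array 2 read above all 3 control-siRNA arrays, and without it the difference was +1.20 and was called (adjusted p = 0.0012). The other kept probes disagreed. Of the 7 kept probes, tested one by one with adjustment over 36817 probes, 1 rose, 3 fell and 3 were not called, with differences from -2.86 to +1.63. Among these were probes that did not clear background on every array of both groups. A probe at chromosome 10, 56097212 to 56097271 (mm9), was above background on all 9 arrays and read -3.38, -3.73 and -3.69 with control siRNA against -1.41, 0.13 and -1.46 in quiescent cells, a difference of -2.69 (adjusted p = 0.00021). The mean of the kept probes gave -0.80.

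**Figure D3:**
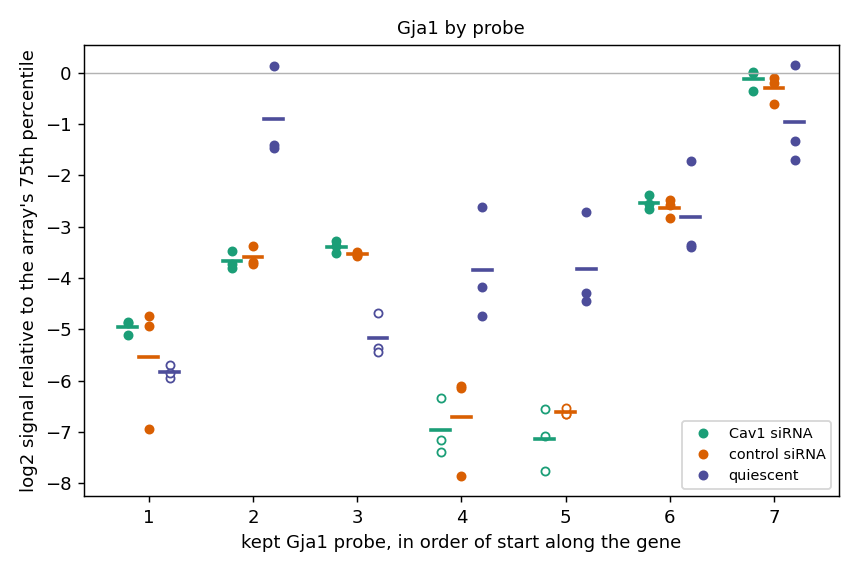
Log2 signal of the 7 kept Gja1 probes on each array (points) with group means (bars), in the order in which the probes start along the gene, for Cav1-siRNA, control-siRNA and quiescent cells. Open points mark probes below background throughout the group. Probes 2, 4 and 5 are higher on the quiescent arrays, probe 3 is higher on the activated arrays, and the remaining probes have no called difference.

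The partners of these proteins were read from lists of their own, beside 42.1% of all genes called higher and 26% called lower. Of 20 measured adherens junction partners 8 rose and 4 fell (median +0.25, near the +0.32 of all genes). The actin linker Vcl (+2.73), the LIM protein Ajuba (+2.77) and the catenin-like Ctnnal1 (+1.47) rose most, and Ctnnd2 (-1.70), the plakoglobin gene Jup (-1.63) and Camsap3 (-0.86) fell most. Ctnna1 (+0.84) and Ctnnb1 (+0.43), the catenins that carry cadherins to actin, both rose. Of 8 measured desmosome genes 7 fell and Ppl (+1.74) rose (median -2.70), with Perp at least 1094-fold lower, Dsp at -5.39 and Pkp3 at least 8.59-fold lower. Desmosomes are known from epithelia, and the hepatocyte values above stand beside these falls too.

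Tight junction partners were split, with 10 rises and 11 falls among 26 measured genes (median -0.18). The adhesion receptor Cxadr (+3.65), Ildr2 (+3.43) and the scaffold Magi2 (+3.21) rose most. Esam (-8.69, clear of background on 1 control-siRNA array), Lsr (-7.97), Tjp3 (at least 133-fold) and Igsf5 (at least 74.9-fold) fell most, and Esam is itself an endothelial marker. Of 5 measured pannexins and connexin partners 3 rose, the actin-binding drebrin gene Dbn1 (+4.30), the ubiquitin ligase Nedd4 (+1.83) and Panx1 (+1.47), while the scaffold Tjp1 (-0.61) fell. Of 13 measured regulators of Cdh1, 5 rose and 3 fell (median +0.35), where 42.1% and 26% of all genes were called. Twist2 (at least 22.6-fold), Twist1 (+3.66) and the repressor Snai1 (+2.86) rose most. The part of these regulators in the fall of Cdh1 was not tested. Among the falls were Esrp2 (-5.78), a splicing factor of epithelia, Grhl1 (-1.25) and Zeb2 (-0.66).

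The arrays lay on 2 slides, and control-siRNA array 1 shared slide 1 with the 3 quiescent arrays. Within that slide the difference of control-siRNA array 1 from the quiescent mean had the same sign as in the comparison over all arrays for all 28 called genes. That array lay outside the quiescent range for 26 of them, the exceptions being Cdh18 and Cldn20, whose groups overlapped. The same arrays took part in making the calls, so these counts describe the called genes and are no separate check of the slide. The largest shift was in Cdh13, by 1.56 on the log2 scale. Of the 28 calls, 20 held in every alternative that gave the gene a value. These were 12 falls and 8 rises, those of Cdh2, Cdh3, Cdh26, Gjb5 and Gjc1 among them.

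The Cav1-siRNA cells were then set against the control-siRNA cells to ask what lowering Cav1 did to the junction genes. Of the 38 measured genes 0 were called in limma (smallest adjusted p = 0.67), and of all genes tested 0% were called. The targeted gene Cav1 was itself not called, although its values did not overlap between the groups. The absence of calls therefore cannot show an absence of effect. At an unadjusted p under 0.05 there were 3 junction genes (7.89%), against 4.96% of all genes. The groups did not overlap for 9 junction genes (23.7%), against 22.6% of all genes. Both shares were near the background. The median difference was -0.12, against -0.04 over all genes, and the largest size was 0.98, for Cldn3, which was not above background on any Cav1-siRNA array.

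The 4 marker genes of adherens and gap junctions had small differences whose intervals take in 0. For Cdh2 the difference was -0.12 (95% confidence interval -0.62 to 0.38) and for Cdh11 it was -0.18 (-0.61 to 0.25). Gja1 had a difference of +0.19 with a wider interval of -0.76 to 1.13. Cdh5 was below background in both groups. Of the genes higher in control-siRNA than in quiescent cells, Cdh3 (-0.15), Cdh26 (-0.06), Gjb5 (+0.19) and Gjc1 (-0.17) had differences smaller in size than 0.3. The interval of Gjc1 reached from -1.18 to 0.84. These intervals leave room for changes of up to those sizes.

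The smallest p-values belonged mostly to claudins. Cldn2 read -7.96, -7.30 and -7.35 with Cav1 siRNA against -8.04, -8.54 and -8.55 with control siRNA, a difference of +0.84 (unadjusted p = 0.0039, adjusted p = 0.67), but it was not above background in either group, so no fold is given. Cldn15, a pore-forming claudin of the gut, read -3.53, -3.60 and -3.50 with Cav1 siRNA against -3.08, -2.88 and -2.68 with control siRNA. The groups did not overlap, and the difference of -0.66 had an unadjusted p of 0.019 and an adjusted p of 0.86. Cdh16 read -2.67, -2.72 and -2.58 with Cav1 siRNA against -1.90, -2.40 and -2.34 with control siRNA, a difference of -0.44 (unadjusted p = 0.025, adjusted p = 0.88). Cldn5 (+0.71, unadjusted p = 0.062) was below background in both groups, and Cldn14 (-0.42, unadjusted p = 0.12) read -4.99, -4.31 and -4.25 with Cav1 siRNA against -3.90, -4.36 and -4.02 with control siRNA, groups that overlapped. Within slide 2, where the 3 Cav1-siRNA arrays lay with control-siRNA arrays 2 and 3, the Cldn15 difference was -0.76 and the Cdh16 difference was -0.28. With array weights Cldn15 (adjusted p = 0.013) and Cldn2 (adjusted p = 0.016) were called, in a setting that called 2.34% of all genes lower and 0.396% higher. Without the weights 0 genes of the partner lists were called.

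**Figure D4:**
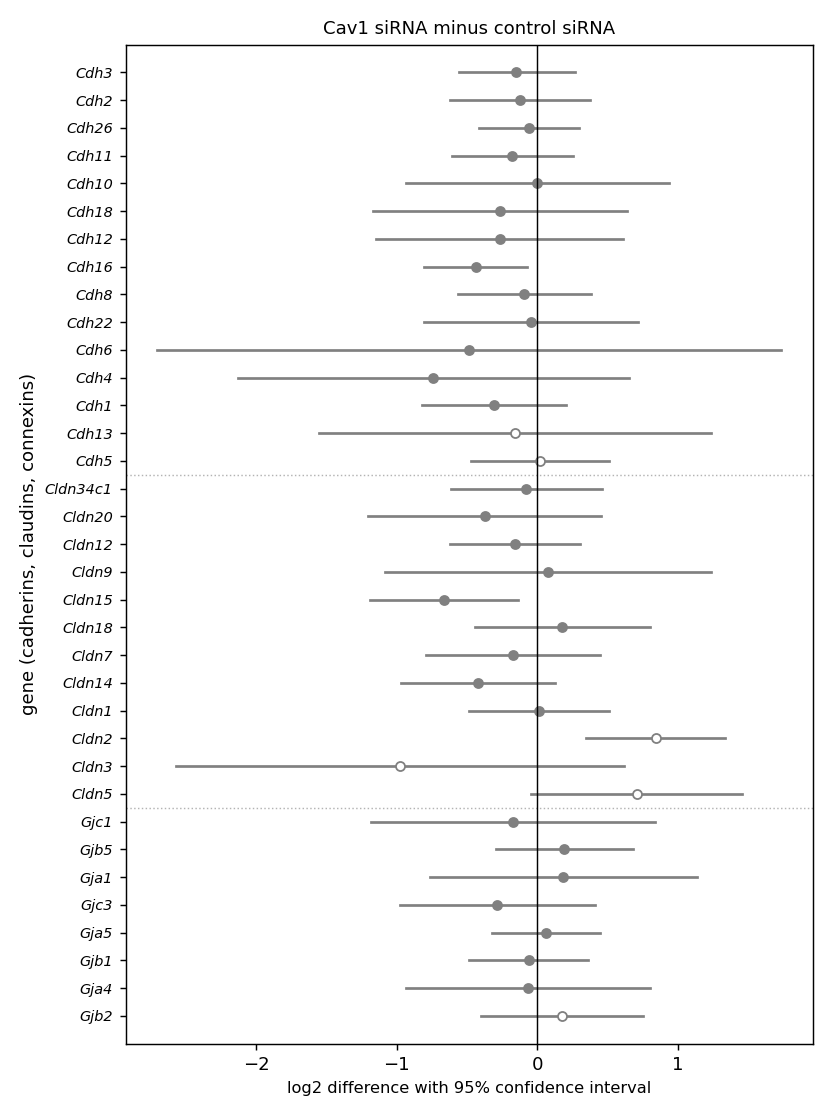
Log2 difference of Cav1-siRNA minus control-siRNA cells for 35 of the 38 measured genes with 95% confidence intervals from limma (n = 3 arrays a group), on a narrower axis than the comparison with quiescent cells. The intervals use a spread estimated over all 9 arrays, quiescent ones included. Open points mark genes not above background in 1 or both groups. All point estimates lie between -0.98 and +0.84, and 0 genes pass the adjusted threshold.

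Set against the quiescent cells directly, the Cav1-siRNA cells had 11 junction genes higher and 14 lower, where 40.4% and 27.2% of all genes were called. This comparison shares the quiescent arrays with the earlier one, so the values are given side by side. Cdh2 differed by +4.23 in Cav1-siRNA cells and +4.35 in control-siRNA cells, Cdh11 by +1.36 and +1.54, and Gjc1 by +4.81 and +4.98. Cdh5 was at least 906-fold lower in Cav1-siRNA cells and at least 1003-fold lower in control-siRNA cells. Cldn15 was called lower in Cav1-siRNA cells (-0.998, adjusted p = 0.0042) and not in control-siRNA cells (-0.34), and the test between the 2 siRNA groups given above was not called. Cdh16, Cdh18, Cldn12 and Cldn20, called in control-siRNA cells, were not called in Cav1-siRNA cells (-0.02, +0.80, +0.44 and +0.63).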

How the data were processed

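There were 9 single-colour arrays, 3 per group. Per the file headers, spot intensities come from Feature Extraction 10.7.1.1 (Agilent), and the deposited values are the processed signal intensity of each spot after background subtraction, on a linear scale and not scaled between arrays. The deposited series-level values hold the same intensity per probe and served as an alternative. Each array has 59305 non-control spots for 56605 probes, none saturated, with coordinates on mm9 per the file headers. Exon and UTR annotation of that build was not used here.

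Signals were put on the log2 scale, each array was centred on its 75th percentile (control spots left out), and replicate spots, outliers dropped, were averaged per probe. Probes stayed in if a share of 0.5 or more of their spots cleared background on every array of some group, which left 36817 probes for 23965 genes, the brightest standing for each gene. No member probe was renamed through RefSeq. Tests came from limma 3.58.1 under R 4.3.3, with 1 linear model fitted to the 9 arrays, moderated by eBayes, two-sided, and Benjamini-Hochberg adjusted across genes, with version 1.17.8 of the data.table package, Python 3.11.15 and matplotlib 3.10.9 for tables and figures. The script was tested on simulated data. Some members are counted but not reported here by name. Array values are given for Cdh2, Cdh5, Cdh11 and Gja1, for up to 5 largest rises and falls per family, and for the 5 smallest p-values of the Cav1 comparison, with up to 3 genes each way per partner list and up to 3 per cell type list. Ctnna1, Ctnnb1, Krt8, Spp1, Cdh6 and the Gja1 probes were singled out after their values were seen. The members and lists were chosen with earlier results of these data known. Alternatives were scaling, background correction, filters, probe choice, slide and replicate blocks, array weights, a minimum change and leaving out each array. The number of arrays limits the precision.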

Additional observations from a re-analysis of the deposited data

How the results depend on the processing

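The number of junction genes higher in control-siRNA than quiescent cells was 15 and ranged from 8 to 17 over 24 alternatives, and the number lower was 13 and ranged from 7 to 25. Requiring probes above background on all 9 arrays left 18 junction genes, of which 8 were higher and 7 lower in control-siRNA cells and 6 higher and 7 lower in Cav1-siRNA cells, each against quiescent cells. Of all genes in that setting 41.5% and 28.2% were called with control siRNA and 41.4% and 29.3% with Cav1 siRNA. Within 1 slide the lone control-siRNA array is assumed to vary like the other groups, so no count is given for that setting. Against a minimum log2 change of 1 there were 9 of 38 higher and 12 lower with control siRNA, beside 16.7% and 14.1% of all genes. Without the filter on dim probes 74 junction genes were tested. Of these 25 were lower with control siRNA and 28 with Cav1 siRNA, beside 29.4% and 28.8% of all genes. With normexp and the 75th percentile these counts were 22 and 24, beside 38.1% and 40.1% of all genes called lower in that setting, against 26% and 27.2% with the main scaling. The median over all genes in control-siRNA minus quiescent cells was -0.125 in that setting, 0.145 with normexp and quantile, 0.32 with the main scaling and 0.47 with median scaling, so small differences are relative to that shift. Against control-siRNA cells, array weights gave 1 gene higher (Cldn2) and 1 lower (Cldn15) in Cav1-siRNA cells, and every other alternative gave 0.

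Leaving out each array in turn gave 11 to 14 higher and 13 to 14 lower genes in control-siRNA against quiescent cells, 0 and 0 in Cav1-siRNA against control-siRNA cells, and 11 to 14 higher and 14 to 15 lower in Cav1-siRNA against quiescent cells. Of all genes 37.2 to 43% were then higher and 23.2 to 27.8% lower in control-siRNA cells. In Cav1-siRNA cells these shares were 35.8 to 41.4% and 24.7 to 29.2%. Deviations of same-numbered samples had correlations from -0.11 to 0.17. With 3 arrays a group these cannot tell whether the replicate numbers pair the samples. With the replicate number as a block 14 genes were higher and 14 lower in control-siRNA cells, 11 higher and 14 lower in Cav1-siRNA cells, each against quiescent cells, and 0 differed between the siRNA groups. The shares of all genes against quiescent cells were 41% and 25.1%, and 39.2% and 26.4%. With the slide as a block the counts were 11 and 13, 10 and 13, and 0. The shares of all genes against quiescent cells were then 31.8% and 20.6%, and 24.4% and 17.9%.

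For Gja1 the mean of kept probes turned the difference to -0.80 in control-siRNA and -0.77 in Cav1-siRNA cells, each against quiescent cells, because the probes disagree. The Cdh5 difference between Cav1-siRNA and control-siRNA cells, both below background, turned to -0.008 with array weights, -0.011 with normexp and the 75th percentile, -0.04 with normexp and quantile, -0.024 with quantile normalization, and -0.05 and -0.068 without control-siRNA array 2 or Cav1-siRNA array 1 (leaving out each array gave -0.068 to 0.078), and the cause was not tested. Cdh2 kept its call as higher and Cdh5 as lower in control-siRNA against quiescent cells in every alternative that gave them a value. Dim genes are limited by background.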
